A study of Rattus norvegicus with 24 samples.

Results

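Primary cardiac fibroblasts from 0-3 days old rats were compared after 24 h in 33 mM glucose, called high glucose here, and after 24 h in 5.5 mM glucose, called normal glucose. The comparison was defined by the age and glucose labels and took 6 of the 24 RNA-seq libraries of the series, 3 in high glucose and 3 in normal glucose. The other 18 libraries came from animals of 3-4 weeks, 10-13 weeks and 20 months under the same 2 media, with 3 libraries in each group. All cells were kept in DMEM with 10% fetal bovine serum, antibiotics and 5% CO2 and were plated in 6-well plates. The labels give no strain, sex or passage. No group with an added inert sugar was part of the comparison, so glucose itself and the osmolarity it adds cannot be told apart. Nothing in the labels says that the 3 libraries of a group came from separate animals or cultures, so a p-value here reflects only how these libraries vary, which may be technical.

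Cardiac fibroblasts make and remodel the collagen matrix of the heart and turn into contractile myofibroblasts after injury. Cells take up glucose through transporters and pass it to glycolysis, to the polyol and hexosamine branches, and to the sugar-sensing Mondo and ChREBP factors, whose best known targets are Txnip and Arrdc4. A concentrated medium also draws water out of cells, and cells are known to respond by importing small solutes such as betaine, taurine and neutral amino acids.

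Total counts were 20207335 to 21836249 per library in high glucose and 19474178 to 20989302 in normal glucose, and 15828 to 15991 genes had a count in high glucose libraries, against 15885 to 15935 in normal glucose libraries. The fibroblast markers were expressed: Pdgfra averaged 33.3 FPKM (the authors' counts scaled by gene length and library total) in high glucose and 30.6 FPKM in normal glucose, Dcn 900.1 FPKM in high glucose and 851.6 FPKM in normal glucose, and Col1a1 3423 FPKM in high glucose and 3538 FPKM in normal glucose. Of 14 fibroblast markers, Col1a2 was listed at 0 in all 6 libraries. Summed cardiomyocyte markers were at 2883 to 3073 CPM in high glucose and 2971 to 3162 CPM in normal glucose. CPM here are counts scaled to the library total after edgeR's TMM adjustment. In the libraries of the later ages the sum was 476 to 742.6 CPM. Tnnt2, a thin filament protein of heart muscle, averaged 247 FPKM in high glucose and 257.9 FPKM in normal glucose. The cardiomyocyte sum was lower in high glucose in each pair. Summed Schwann cell markers were at 22.2 to 25.6 CPM in high glucose and 18.1 to 20.9 CPM in normal glucose, higher in each pair without overlap. The sums of endothelial markers (396.1 to 461.2 CPM in high glucose and 373.3 to 448.3 CPM in normal glucose) and epicardial markers (91.2 to 119.4 CPM in high glucose and 88.6 to 105.4 CPM in normal glucose) were also higher in each pair, with overlap. Most of the endothelial sum was Eng, at 351.6 to 405.3 CPM in high glucose and 327.3 to 395 CPM in normal glucose. Single markers were mixed. A log2 change above 0 was seen in 4 of 9 tested endothelial and 3 of 8 tested epicardial markers, with list medians of -0.06 and -0.12. The part of these cells in the results was not tested. In bulk RNA, fewer cells of a type and less RNA per cell cannot be told apart.

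Libraries with the same number were treated as culture pairs, which the comparison's definition allows and the labels do not state. On the first principal component of the 6 libraries, which held 31.8% of the variance, both libraries numbered 1 stood apart, at -19.3 in high glucose and -23.6 in normal glucose. Libraries 2 and 3 were at 15.2 and 20.9 in high glucose, against -0.785 and 7.59 in normal glucose. The high glucose library thus lay above its partner in each of the 3 pairs. High glucose library 2 was nearer to high glucose library 3 than to its own partner there. On the second, which held 25.3%, the high glucose library lay below its normal glucose partner in each of the 3 pairs, at -6.78, -25.7 and 5.9 in high glucose, against 1.85, 0.807 and 23.9 in normal glucose. The spread within pairs was narrower than that between libraries of a group. The median SD of log2 CPM was 0.136 among high glucose libraries and 0.131 among normal glucose libraries. It was 0.106 from the pair differences (their SD divided by the square root of 2), which leave out differences in level between pairs.

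**Figure D1:**
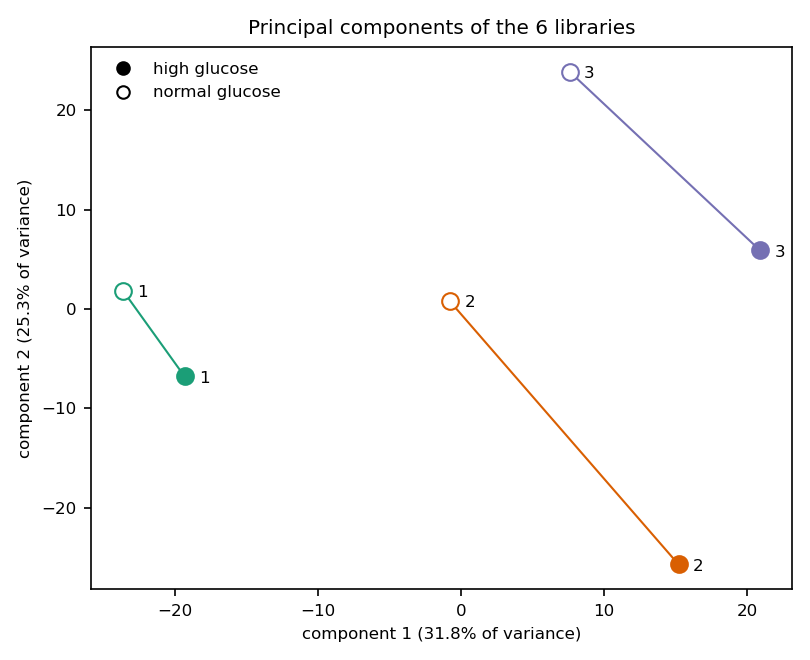
Principal components 1 and 2 of log2 CPM in the 6 libraries of 0-3 days fibroblasts, with high glucose as filled and normal glucose as open circles, and lines joining libraries with the same number. Each high glucose library lies below its partner on component 2 and to its right on component 1, and both libraries numbered 1 lie at the left of component 1.

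Few genes passed the test of high against normal glucose at 0-3 days. With culture number as a replicate block, edgeR's quasi-likelihood test called 148 of 13806 genes at a Benjamini-Hochberg adjusted p under 0.05, a share of 1.07%. Of these, 76 rose (0.55% of the genes tested) and 72 fell (0.522%), with median log2 changes of 0.35 and -0.36. Only 6 of the genes that rose and 1 of those that fell changed by more than 2-fold, and 15 and 12 did so by more than 1.5-fold. The 3 pairs moved the same way for each of the 148, while among all genes tested 15.1% were higher and 19.3% lower in 3 of 3 pairs. High and normal glucose libraries did not overlap for 44 of the 76 genes that rose and for 46 of the 72 that fell. Among all genes tested the share was 11.4% (4.73% higher and 6.66% lower). The calls were made on these same libraries, so agreement of the pairs and lack of overlap are no separate support for them.

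These calls rest on the pairing. Without the block, edgeR called 0 genes at the same threshold, 522 genes (3.78%) had an unadjusted p under 0.05, and the smallest adjusted p was 0.364. With the block, 1989 genes (14.4%) had an unadjusted p under 0.05, 862 of them higher (6.24%) and 1127 lower (8.16%). The 148 genes all kept their sign without the block, and 98 of them had an unadjusted p under 0.05 there. Single pairs also weighed on the count: it was 281 without pair 1, 16 without pair 2 and 29 without pair 3, and a paired fit of the 6 libraries alone called 17. DESeq2 with the block called 108 genes, of which 94 were among the 148.

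**Figure D2:**
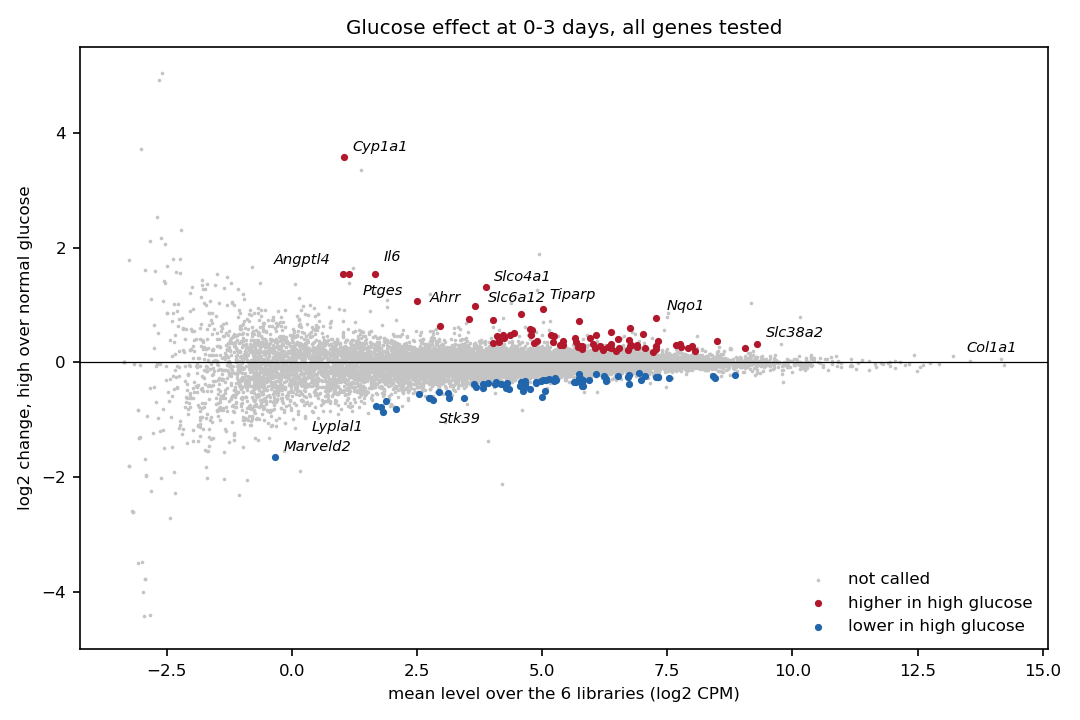
Log2 change in high over normal glucose (vertical axis) against the mean log2 CPM of the 6 libraries (horizontal axis) for the 13806 genes tested at 0-3 days. Red points are the 76 genes called higher in high glucose and blue points the 72 called lower; most called genes changed by less than 2-fold, and Cyp1a1 stands highest among them.

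The largest rise among the called genes was that of Cyp1a1, a cytochrome P450 that oxidises planar aromatic compounds and is the best known target of the aryl hydrocarbon receptor. It had 7.54, 6.40 and 5.82 CPM in high glucose, against 0.444, 0.726 and 0.483 CPM in normal glucose (raw counts of 176, 140 and 124 in high glucose, against 10, 15 and 10 in normal glucose). All 3 high glucose libraries lay far above the normal glucose ones, and the fold was 11.9 (log2 change 3.57 ± 0.50 SE, edgeR adjusted p 0.0103). The call was lost without the block (adjusted p 0.855). On Rnor_6.0, the deposited table places Cyp1a1 at chr8:62472095-62478147 (plus strand) and Tiparp, described next, at chr2:157316266-157341469 (plus strand).

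Tiparp, which encodes an ADP-ribosyltransferase that represses the aryl hydrocarbon receptor, had the smallest adjusted p of all genes. It had 33.4, 52.9 and 49.7 CPM in high glucose, against 20.0, 25.4 and 25.2 CPM in normal glucose. The groups were separate, with the lowest value of each in pair 1. Its log2 change was 0.93 ± 0.09 SE (adjusted p 1.42e-05 in edgeR). The gene passed the threshold in 10 of 11 other settings, the exception being the fit without the block (adjusted p 0.364). Ahrr, the receptor's own repressor, had 18.3, 15.1 and 19.8 CPM in high glucose, against 9.05, 8.18 and 9.75 CPM in normal glucose. The groups did not overlap, with a fold of 1.97, yet the call was at the edge of the threshold (log2 change 0.98 ± 0.20 SE, edgeR adjusted p 0.0492) and held in 3 of 11 other settings. Nqo1, a quinone reductase induced by aromatic and electrophilic compounds, had 167.8, 192.6 and 255.3 CPM in high glucose, against 98.1, 114.4 and 149.2 CPM in normal glucose. The lowest high glucose value lay above the highest normal glucose value, and the rise was 0.77 ± 0.13 SE on the log2 scale (edgeR adjusted p 0.0278).

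These 4 genes belong to a list of 10 aryl hydrocarbon receptor genes that was put together after their values were seen, so its counts are a description. Of the 8 members tested, 4 rose and 0 fell (0.55% and 0.522% of all genes did). The list median of log2 change was 0.86, against -0.01 for all genes tested. At an unadjusted p under 0.05 in edgeR, 7 members were higher and 1 lower (6.24% and 8.16% of all genes). Cyp1b1, another cytochrome P450 of the list, averaged 1506 ± 21.1 CPM in high glucose and 866.4 ± 44.9 CPM in normal glucose (SD, n = 3 each). Its libraries stood far apart, but it was not called (log2 change 0.80 ± 0.21 SE, edgeR adjusted p 0.139) except in 3 of 11 other settings, among them the fit of the 6 libraries alone (adjusted p 8.18e-04). Aldh3a1, an aldehyde dehydrogenase, averaged 4.15 ± 1.66 CPM in high glucose and 1.29 ± 0.32 CPM in normal glucose (SD, n = 3 each), with 3 of 3 pairs higher and an edgeR adjusted p of 0.244. Ahr, the receptor itself, was at 67.5 to 68.9 CPM in high glucose and at 75.1 to 79.97 CPM in normal glucose, which did not pass the test (edgeR adjusted p 0.178). The number of list members called higher was 2 without pair 1, 1 without pair 2, 1 without pair 3 and 0 without the block.

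The receptor is known to bind a short sequence, the dioxin response element, with the core GCGTG. The 250 bases before the start of Ahrr, Tiparp and Nqo1, taken from RefSeq, are shown to let that core be seen. Cyp1a1 is not shown, as no window was found under its symbol. The core and its reverse complement CACGC are in capitals, positions are on GRCr8, and each sequence runs 5′ to 3′ on the gene's strand. The windows are chr1:30821969-30822218, plus strand, for Ahrr, chr2:152063519-152063768, plus strand, for Tiparp, and chr19:52220268-52220517, minus strand, for Nqo1.
Ahrr: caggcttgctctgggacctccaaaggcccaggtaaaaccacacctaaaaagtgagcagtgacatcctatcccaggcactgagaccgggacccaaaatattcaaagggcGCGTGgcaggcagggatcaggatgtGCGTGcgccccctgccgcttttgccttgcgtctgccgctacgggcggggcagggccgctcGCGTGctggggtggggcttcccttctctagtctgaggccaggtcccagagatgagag
Tiparp: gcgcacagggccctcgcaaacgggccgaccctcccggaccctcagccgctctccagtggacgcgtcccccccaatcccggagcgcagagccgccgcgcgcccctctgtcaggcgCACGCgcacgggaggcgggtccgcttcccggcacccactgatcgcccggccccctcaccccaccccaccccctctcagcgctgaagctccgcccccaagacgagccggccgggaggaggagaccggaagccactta
Nqo1: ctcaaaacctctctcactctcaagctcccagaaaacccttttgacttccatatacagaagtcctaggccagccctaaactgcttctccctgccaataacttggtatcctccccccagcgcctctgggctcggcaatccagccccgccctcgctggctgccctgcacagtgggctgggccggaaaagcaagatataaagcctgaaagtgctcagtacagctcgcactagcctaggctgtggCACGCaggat
The Ahrr window held 3 cores, all on the gene's strand, while the Tiparp and Nqo1 windows held 1 each, on the other strand. Of the other list members with a window, not shown, Cyp1b1 held 2 cores, Ugt1a6 and Arnt 1 each, and Cyp1a2 and Ahr 0. On both strands together, 25.9% of 33469 promoter windows of the same length held at least 1 core, and 2.58% held 3 or more. The longer form TNGCGTG, which contains the core, occurred in 4.09% of windows. It was in those of Ahrr and Cyp1b1, but not in those of Tiparp, Nqo1 or the other list members. The motif was chosen after the values of these genes were seen, and a match to its letters is a description of the window only.

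Of 16 tested members of an osmotic response list, 3 rose (0.55% of all genes did) and 1 fell, 12 were not called, and the median log2 change was 0.15, against -0.01 for all genes. Slc6a12, the betaine transporter, had 31.2, 39.3 and 26.6 CPM in high glucose, against 19.9, 21.0 and 13.5 CPM in normal glucose. The gene lies at chr4:153921115-153941391 (plus strand, Rnor_6.0). Every high glucose library lay above every normal glucose library, and the increase was 0.84 ± 0.11 SE on the log2 scale (edgeR adjusted p 0.00108), past the threshold in 10 of 11 other settings. Slc6a6, the taurine transporter, had 160.3, 142.5 and 156.6 CPM in high glucose, against 88.9, 115.7 and 122.4 CPM in normal glucose. This gene was chosen after its values were seen. The groups did not overlap, and the pair 1 difference was the widest (log2 change 0.50 ± 0.08 SE, edgeR adjusted p 0.00928). Slc38a2, a sodium-coupled carrier of neutral amino acids, had 778.5, 653.1 and 693.0 CPM in high glucose, against 555.1, 568.2 and 564.9 CPM in normal glucose. The normal glucose libraries were almost level and all below those in high glucose (log2 change 0.33 ± 0.05 SE, edgeR adjusted p 0.0034).

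Stk39, the kinase SPAK that phosphorylates cation-chloride cotransporters, was the member that fell. It had 8.61, 8.27 and 9.01 CPM in high glucose, against 13.3, 12.2 and 14.6 CPM in normal glucose. The groups were separate and tight (log2 change -0.63 ± 0.11 SE, edgeR adjusted p 0.0056). Nfat5, the transcription factor best known for the osmotic response and likewise chosen after its values were seen, averaged 136.0 CPM in high glucose and 115.5 CPM in normal glucose, higher in 3 of 3 pairs but not called (edgeR adjusted p 0.125). Akr1b1, the aldose reductase that makes sorbitol, had a log2 change of 0.08 ± 0.06 SE and was not called either (edgeR adjusted p 0.567). Slc5a3, the inositol transporter, was not analysed here. Slc6a12 and Slc38a2 passed without pair 1, pair 2 or pair 3 in turn. No member was called without the block (0 of 16), and 1 was called higher in a fit of the 6 libraries alone.

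**Figure D3:**
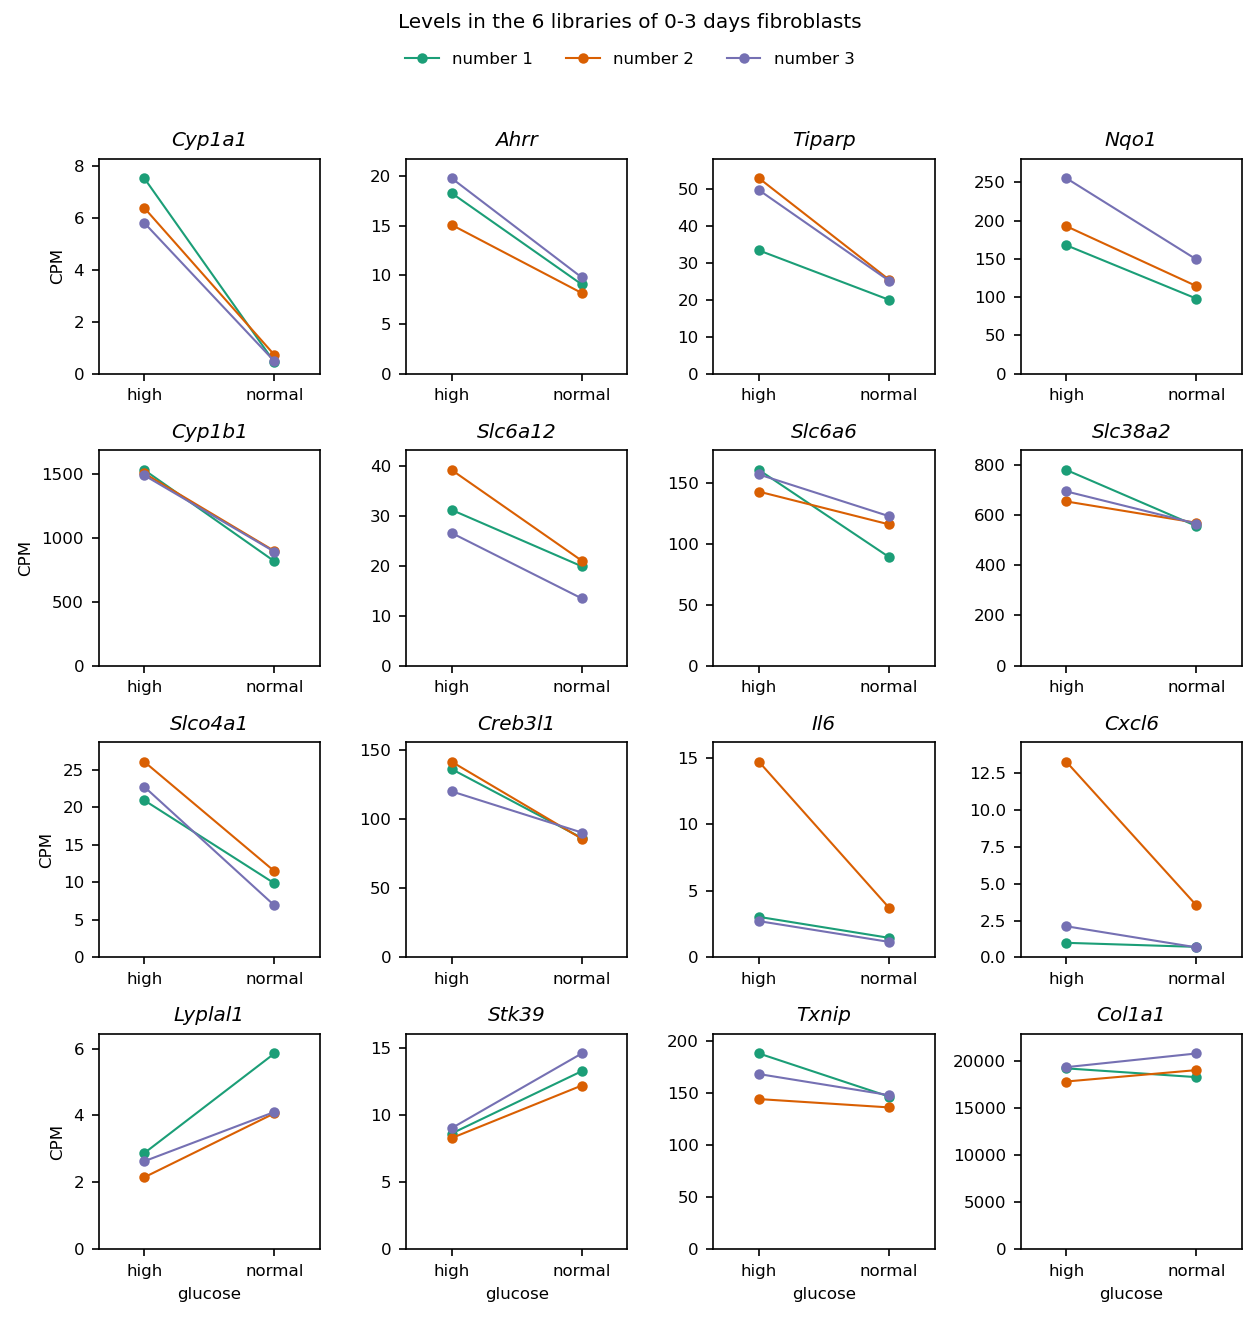
CPM of 16 genes in the 6 libraries of 0-3 days fibroblasts, with high glucose on the left and normal glucose on the right of each panel, each vertical axis starting at 0, and lines joining libraries with the same number. Cyp1a1, Ahrr, Tiparp, Nqo1, Cyp1b1, Slc6a12, Slc6a6, Slc38a2, Slco4a1 and Creb3l1 are higher in every high glucose library, Il6 and Cxcl6 are led by library 2 in high glucose, and Cyp1b1, Txnip and Col1a1 were not called.

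Of 27 tested cytokines and NF-kappaB targets, 2 rose and 0 fell, against 0.55% of all genes called higher, and the median log2 change was 0.26. With the 2 called, 10 had an unadjusted p under 0.05 and were higher (6.24% of all genes did so), and 13 were higher in 3 of 3 pairs (15.1% of all genes). Il6, a secreted cytokine of the acute response, had 3.04, 14.7 and 2.72 CPM in high glucose, against 1.46, 3.73 and 1.16 CPM in normal glucose. Library 2 was the highest of each group, and the groups overlapped (log2 change 1.54 ± 0.28 SE, edgeR adjusted p 0.0122). Cxcl6, a neutrophil-attracting chemokine, had 0.986, 13.3 and 2.11 CPM in high glucose, against 0.710, 3.53 and 0.676 CPM in normal glucose, and rose by 1.54 ± 0.33 SE on the log2 scale (edgeR adjusted p 0.0285). Cxcl1, another chemokine of the same family, had 7.80, 236.4 and 84.5 CPM in high glucose, against 7.41, 43.8 and 16.0 CPM in normal glucose, and was not called (edgeR adjusted p 0.209); it was chosen after its values were seen. No member of the list was called without pair 2 or without pair 3, and 4 were called higher without pair 1. Summed macrophage and leukocyte markers were at 753 to 839.9 CPM in high glucose and at 676.9 to 875.4 CPM in normal glucose, which overlapped, and their part in the result was not tested.

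The called genes Il1r1, Il1rn and Ereg, which have roles in inflammation and repair, were chosen after their values were seen. Il1r1, the receptor of interleukin-1, had 375.1, 463.5 and 392.6 CPM in high glucose, against 301.2, 342.7 and 302.6 CPM in normal glucose, without overlap (log2 change 0.38 ± 0.04 SE, edgeR adjusted p 8.7e-05). Il1rn, which encodes the secreted antagonist of that receptor, rose by 0.58 ± 0.11 SE, and Ereg, a ligand of the EGF receptor, by 0.56 ± 0.09 SE on the log2 scale (edgeR adjusted p 0.0102 and 0.00282). Ptges, which makes prostaglandin E, had 6.69, 18.4 and 4.27 CPM in high glucose, against 4.08, 8.03 and 1.69 CPM in normal glucose. Its groups overlapped because library 2 was high at both glucose levels, and it rose by 1.06 ± 0.19 SE on the log2 scale (edgeR adjusted p 0.00994).

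Slco4a1, an organic anion and thyroid hormone transporter, had 20.9, 26.0 and 22.7 CPM in high glucose, against 9.85, 11.5 and 6.90 CPM in normal glucose. Each high glucose library was well over each normal glucose one (log2 change 1.32 ± 0.15 SE, edgeR adjusted p 2.47e-04), and the call held in 10 of 11 other settings. Angptl4, a secreted inhibitor of lipoprotein lipase, had 0.771, 11.7 and 3.61 CPM in high glucose, against 0.665, 3.19 and 1.06 CPM in normal glucose. It was barely different in pair 1 and highest in library 2 of each group, with overlap (log2 change 1.54 ± 0.33 SE, edgeR adjusted p 0.029). Angptl4 was the only called member of 22 tested fatty acid oxidation genes (0.55% of all genes were called higher). The list leaned the other way, with a median log2 change of -0.06. At an unadjusted p under 0.05 in edgeR, 4 members were lower and 1 higher (8.16% and 6.24% of all genes). In 3 of 3 pairs, 8 members were lower (19.3% of all genes). Creb3l1, a membrane-bound transcription factor known to drive procollagen secretion, had 136.1, 141.4 and 120.0 CPM in high glucose, against 86.3, 85.7 and 90.2 CPM in normal glucose. Its groups were widely separate (log2 change 0.60 ± 0.06 SE, edgeR adjusted p 8.27e-05), and it passed in 10 of 11 other settings. Eepd1, a nuclease with a role in DNA repair, rose by 0.76 ± 0.13 SE, and Kif26b, an atypical kinesin, by 0.73 ± 0.10 SE on the log2 scale (edgeR adjusted p 0.00448 and 0.00108). Some rises given so far were tested in 10 or 11 other settings that are not yet stated. Angptl4 and Cxcl6 passed in 5, Cyp1a1, Il6, Nqo1 and Ptges in 6, Eepd1 in 7, Slc38a2 in 8 and Kif26b in 9. Slc6a6, Il1r1, Il1rn and Ereg were not followed through all these settings. Without the block none of them was called (edgeR unadjusted p 0.12, 0.0548, 0.0537 and 0.145, in that order).

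Of the 12 named genes with the largest falls, Stk39 is given above. Lyplal1, a lysophospholipase-like serine hydrolase, had 2.87, 2.15 and 2.63 CPM in high glucose, against 5.85, 4.06 and 4.10 CPM in normal glucose. No library of high glucose reached the normal glucose range, and the log2 change was -0.87 ± 0.16 SE (edgeR adjusted p 0.00928). Hspb11, a subunit of the intraflagellar transport complex, had 3.64, 3.20 and 2.53 CPM in high glucose, against 6.12, 4.69 and 5.70 CPM in normal glucose, also without overlap (log2 change -0.82 ± 0.18 SE, edgeR adjusted p 0.0278). Mycn, a growth-promoting transcription factor, had 9.60, 4.30 and 8.17 CPM in high glucose, against 12.8, 8.32 and 11.97 CPM in normal glucose. Library 2 was lowest at both glucose levels, so the groups overlapped while every pair was lower (log2 change -0.61 ± 0.12 SE, edgeR adjusted p 0.0131). Cmklr1, the receptor of chemerin, averaged 26.3 ± 7.40 CPM in high glucose and 39.6 ± 6.56 CPM in normal glucose (SD, n = 3 each; log2 change -0.61 ± 0.09 SE, edgeR adjusted p 0.0056). Wbscr27, Cacna1b, a neuronal calcium channel subunit, Ephb6, a kinase-dead ephrin receptor, Cpped1, a phosphatase, Tmem246, Rapgef4, an exchange factor activated by cyclic AMP, and Ttll1, a tubulin polyglutamylase, fell by 0.78, 0.76, 0.68, 0.66, 0.63, 0.61 and 0.55 on the log2 scale, in that order, with edgeR adjusted p from 0.0307 to 0.0467. These 7 passed the threshold in 2 to 6 of the 10 or 11 other settings in which each was tested, Cacna1b in 2 and Ephb6 in 3, while Lyplal1, Hspb11, Mycn, Cmklr1 and Stk39 passed in 5 to 7.

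No call was made in the glucose-handling lists. They held 10 tested Mondo and ChREBP genes, 28 genes of glucose uptake and glycolysis, and 17 genes of the pentose phosphate, polyol and hexosamine routes. Each had 0 calls, while 1.07% of all genes were called. At that share, 0 calls does not set lists of this size apart from other genes. The list medians of log2 change were 0.05, 0.04 and 0.04. In that order, 4, 6 and 3 members had an unadjusted p under 0.05 with the block (14.4% of all genes did), of which 3, 3 and 3 were higher. Txnip, the arrestin-like inhibitor of thioredoxin that responds to sugar, had 188.3, 144.4 and 168.4 CPM in high glucose, against 146.8, 136.3 and 148.2 CPM in normal glucose. It was higher in each pair, but the groups overlapped, and the log2 change of 0.21 ± 0.07 SE was not called (edgeR adjusted p 0.136, and 0 of 11 other settings). Arrdc4, its close relative, was similar in size (0.23 ± 0.10 SE, edgeR adjusted p 0.268). Slc2a1, the main glucose transporter of fibroblasts, had a log2 change of 0.25 ± 0.13 SE and Hk2, a hexokinase, one of 0.18 ± 0.08 SE (edgeR adjusted p 0.42 and 0.316). Gfpt1, the first enzyme of the hexosamine route, had 0.12 ± 0.04 SE (edgeR adjusted p 0.2), and Pdk4, which restrains pyruvate oxidation, had 0.09 ± 0.34 SE at 1.23 CPM in high glucose and 1.16 CPM in normal glucose (edgeR adjusted p 0.938).

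No gene of 17 collagens, 24 matrix remodelling genes or 18 contractile genes was called (0 in each list, while 1.07% of all genes were). In that order, 3, 5 and 6 members had an unadjusted p under 0.05 (14.4% of all genes), all lower but 1 matrix remodelling gene. The list medians were -0.08, -0.05 and -0.07 on the log2 scale. Col1a1, the main collagen chain of scar, had 19215, 17818 and 19344 CPM in high glucose, against 18283, 19030 and 20800 CPM in normal glucose. The groups overlapped, and the log2 change was -0.04 ± 0.05 SE (edgeR adjusted p 0.74). A log2 change above 0 was seen in 2 of 17 collagens, 6 of 24 remodelling genes and 3 of 18 contractile genes. Among all genes tested it was seen in 6505 of 13806. Col3a1 had -0.15 ± 0.07 SE, Acta2, the smooth muscle actin of myofibroblasts, -0.02 ± 0.06 SE and Postn, a matricellular protein of activated fibroblasts, 0.05 ± 0.04 SE (edgeR adjusted p 0.361, 0.939 and 0.659). Among 28 matrix glycoproteins 1 rose and 0 fell (0.55% and 0.522% of all genes did). Spp1, or osteopontin, averaged 244.6 ± 47.5 CPM in high glucose and 202.2 ± 27.7 CPM in normal glucose (SD, n = 3 each). Its log2 change was 0.27 ± 0.05 SE (edgeR adjusted p 0.0158). Among 25 genes of the TGF-beta pathway 1 rose and 0 fell: Skil, a repressor of Smad proteins, at 0.28 ± 0.06 SE (edgeR adjusted p 0.0214). At an unadjusted p under 0.05, 4 matrix glycoproteins were higher and 0 lower, and 5 TGF-beta genes were higher and 2 lower. Among all genes these shares were 6.24% and 8.16%. Tgfb3, a TGF-beta ligand, was lower in each pair at 843.9, 599.1 and 1013 CPM in high glucose, against 915.5, 929.5 and 1217 CPM in normal glucose, and was not called (edgeR adjusted p 0.069). Tcf21, a transcription factor of resident fibroblasts and the only called fibroblast marker among 13 tested, named for that reason, rose by 0.37 ± 0.08 SE (edgeR adjusted p 0.0303).

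Stress and lipid lists held single calls, while 0.55% of all genes were called higher and 0.522% lower. Of 24 oxidative stress genes 1 rose, Nqo1, and 9 others had an unadjusted p under 0.05 and were higher, making 10 (6.24% of all genes), while 2 were lower, with a list median of 0.14. Among the 9 were Gclc, the rate-limiting enzyme of glutathione synthesis (0.27 ± 0.07 SE, edgeR adjusted p 0.0805), and Sod2, the mitochondrial superoxide dismutase (0.45 ± 0.11 SE, edgeR adjusted p 0.0955). Of 13 heat shock genes 1 rose, the chaperone Hsph1 (0.29 ± 0.06 SE, edgeR adjusted p 0.0323). With Hsph1, 3 were higher and 1 lower at an unadjusted p under 0.05 (6.24% and 8.16% of all genes). Of 15 hypoxia genes 1 rose, the vasodilator peptide Adm (0.25 ± 0.05 SE, edgeR adjusted p 0.0158). With Adm, 4 were higher and 1 lower at that unadjusted level. Of 28 genes of the unfolded protein and amino acid stress list 1 fell, the endoplasmic reticulum protein Creld2, which averaged 43.9 ± 3.99 CPM in high glucose and 55.8 ± 1.39 CPM in normal glucose (SD, n = 3 each; log2 change -0.35 ± 0.07 SE, edgeR adjusted p 0.0203). With Creld2, 7 of the 28 had an unadjusted p under 0.05 and were lower (8.16% of all genes) and 0 were higher, 14 were lower in 3 of 3 pairs (19.3% of all genes), and the list median was -0.08. Of 17 fatty acid synthesis genes 1 fell, Mid1ip1, a regulator of acetyl-CoA carboxylase (-0.22 ± 0.05 SE, edgeR adjusted p 0.0415). With Mid1ip1, 2 were lower and 0 higher at an unadjusted p under 0.05.

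No gene was called among 24 cholesterol genes, 29 interferon genes, 25 immediate early genes, 33 cell cycle genes, 20 senescence and p53 targets, 15 FoxO targets, 11 mitochondrial genes and 23 nuclear genes of the respiratory chain (0 in each list, while 1.07% of all genes were called). In that order, 7, 4, 2, 2, 2, 2, 0 and 3 members had an unadjusted p under 0.05 in edgeR (14.4% of all genes). All were lower except 1 interferon gene and both FoxO targets. The cholesterol list thus had 7 of 24 members lower at that level, against 8.16% of all genes, and 2 of 24 with a log2 change above 0. The medians of these lists lay between -0.09 and 0.02 on the log2 scale. The nearest to the threshold among the cholesterol genes were Pmvk and Dhcr7, enzymes of the pathway, at -0.32 ± 0.09 SE and -0.23 ± 0.06 SE (edgeR adjusted p 0.0779 and 0.0784). The cell cycle inhibitor Cdkn1a, a p53 target, was not called (0.13 ± 0.09 SE, edgeR adjusted p 0.555).

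**Figure D4:**
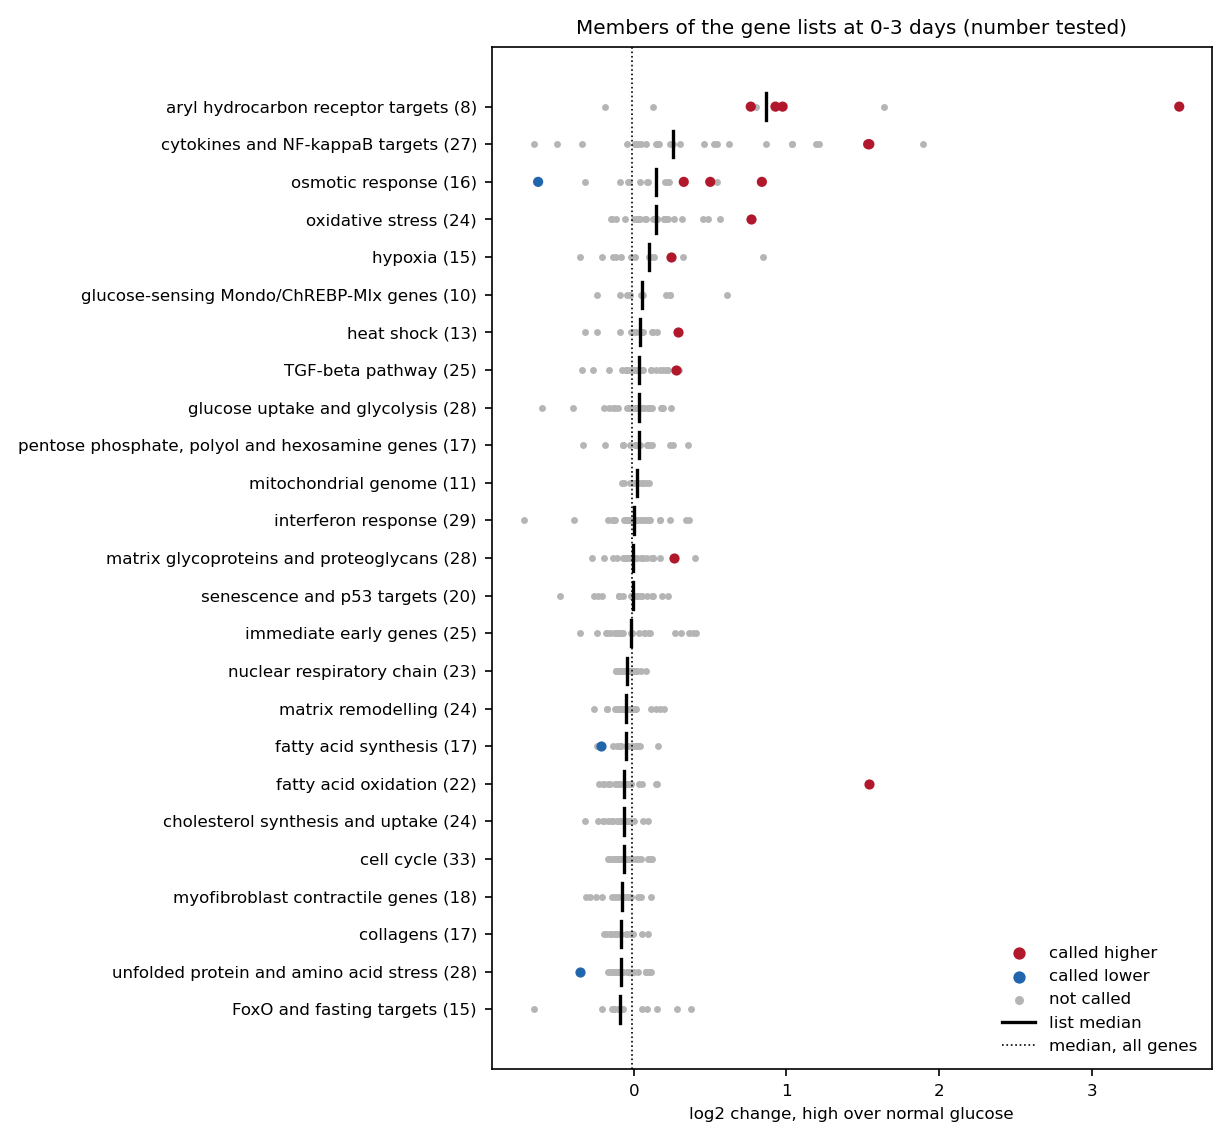
Log2 change in high over normal glucose at 0-3 days (horizontal axis) of each tested member of the 25 gene lists, with called members in red or blue, members not called in grey, list medians as bars and the median of all genes as a dotted line. The aryl hydrocarbon receptor list, put together after its values were seen, lies farthest right, followed by cytokines and the osmotic response. Collagens have a median of -0.08, left of the dotted line at -0.01, and glycolysis has one of 0.04, right of it.

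The glucose effect of the neonatal cells was set against that of the later ages, whose libraries it does not share. The same fit called 54 genes at 3-4 weeks (0.391%), 1068 at 10-13 weeks (7.74%) and 128 at 20 months (0.927%). Of these, 18, 51 and 21 were called in the same direction in the neonatal cells, which was 12.2%, 34.5% and 14.2% of the 148, and 33.3%, 4.78% and 16.4% of the genes called at those ages. Genes called in opposite directions numbered 0, 9 and 1. Slc6a12, Slc38a2, Mtmr10, Amd1 and Acsl4 rose and Tubb3 fell at all 4 ages, and the last 4 of these are named for that alone. The betaine transporter Slc6a12 had log2 changes of 0.84 in the neonatal cells and of 1.12, 1.23 and 1.77 at the later ages in rising order, and the neonatal effect minus the mean of the later ones was -0.53 ± 0.20 SE (edgeR adjusted p 0.472).

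A test of the difference itself, the 0-3 days effect minus the mean of the 3 later effects, called 20 genes (0.145%), of which 14 were higher (0.101%) and 6 lower (0.0435%), and 0 without the block (187 at an unadjusted p under 0.05 and a smallest adjusted p of 1). Tiparp was among them: its log2 change was 0.93 ± 0.09 SE at 0-3 days, against -0.05 ± 0.10, 0.15 ± 0.09 and 0.06 ± 0.09 SE at the later ages in rising order (difference 0.88 ± 0.10 SE, edgeR adjusted p 2.57e-04). The same difference was 3.28 ± 0.61 SE for Cyp1a1, 0.76 ± 0.23 SE for Ahrr and 0.62 ± 0.15 SE for Nqo1, and none of these passed (edgeR adjusted p 0.11, 0.374 and 0.264). Creb3l1 had 0.60 ± 0.06 SE at 0-3 days and fell at 10-13 weeks (-0.33 ± 0.06 SE, edgeR adjusted p 0.00445), and its difference was 0.71 ± 0.07 SE (edgeR adjusted p 1.06e-04). Ackr3, a scavenger receptor of the chemokine CXCL12, had 61.8, 85.5 and 59.7 CPM in high glucose, against 39.8, 45.3 and 38.9 CPM in normal glucose at 0-3 days. It rose there without overlap (0.72 ± 0.10 SE) and fell at 10-13 weeks (-0.43 ± 0.10 SE). Ptges and Kif26b, whose groups overlapped at 0-3 days, also rose there and fell at 10-13 weeks (-1.48 ± 0.40 SE and -0.46 ± 0.11 SE, edgeR adjusted p 0.0316 and 0.0166). The count of 20 became 54 without pair 1, 2 without pair 2 and 6 without pair 3, and 12 without the 3-4 weeks libraries numbered 1.

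Genes with a lower effect at 0-3 days than later were Diras2, a Ras-like GTPase, Fras1, a basement membrane protein, Syt13, a synaptotagmin, Sipa1l2, Smtn, a cytoskeletal protein of smooth muscle, and Cdr2l. Fras1 fell at 0-3 days (-0.45 ± 0.10 SE, edgeR adjusted p 0.0325) and rose at 10-13 weeks (0.45 ± 0.09 SE) and at 20 months (0.39 ± 0.07 SE). Smtn was at 139.0, 121.9 and 124.8 CPM in high glucose, against 145.6, 145.3 and 130.8 CPM in normal glucose at 0-3 days, and its change there was not called (edgeR adjusted p 0.228). Summed smooth muscle and pericyte markers were at 1851 to 2052 CPM in high glucose and at 2053 to 2077 CPM in normal glucose, lower in each pair; Smtn is 1 of these 12 markers, and the part of such cells in the result was not tested.

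**Figure D5:**
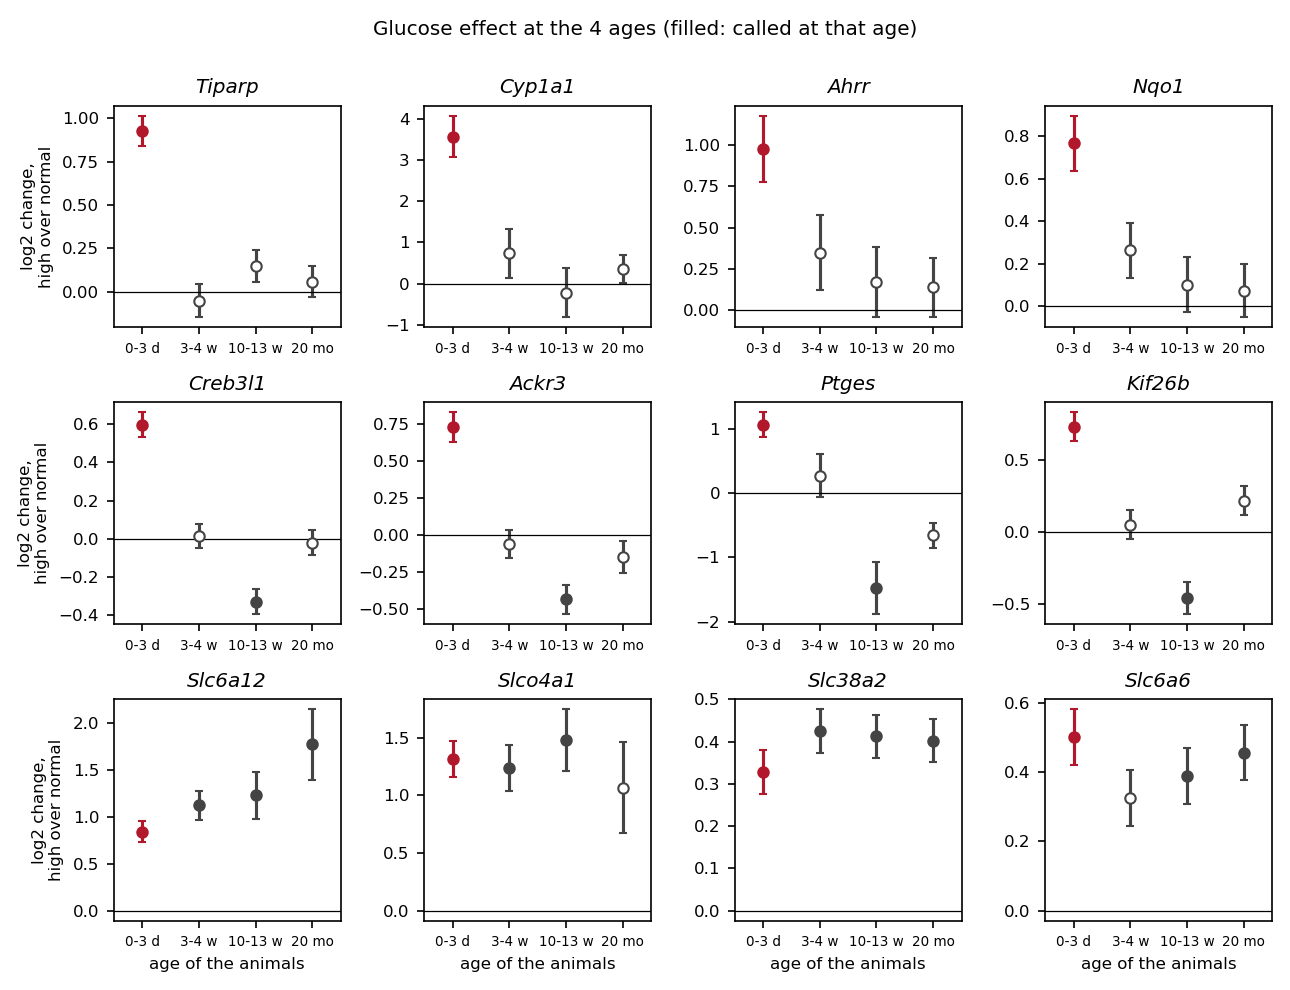
Log2 change in high over normal glucose (vertical axis, bars are the SE) at the 4 ages (horizontal axis) for 12 genes, with 0-3 days in red and filled circles for genes called at that age. The first 8 genes have their highest value at 0-3 days, a difference that passed the test for Tiparp, Creb3l1, Ackr3, Ptges and Kif26b, and Slc6a12, Slco4a1, Slc38a2 and Slc6a6 lie above 0 at each age.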

How the data were processed

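Gene expression was measured by RNA-seq in rat cardiac fibroblasts (24 libraries). The authors deposited 1 table with whole-number read counts per gene, not normalized, and FPKM values, which are those counts scaled by gene length and library total. The build Rnor_6.0 and the tools StringTie 1.3.0, HISAT2 2.0.4 and edgeR are named, without their roles, per the submitters' processing notes; annotation release and strandedness are not given in the sources used here.

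The counts were tested with edgeR 4.0.16 (R 4.3.3). Of 30957 genes, 13806 passed filterByExpr by group (minimum count 10, minimum total 15). Levels are TMM-scaled CPM, and so are the sums over cell type markers. The robust quasi-likelihood test was fitted to all 24 libraries with culture number within age as a block and a glucose effect per age, which left 8 residual degrees of freedom. P-values are two-sided and Benjamini-Hochberg adjusted over all genes tested, with a threshold of 0.05. The SE of a log2 change is its size divided by the square root of the F statistic.

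The labels number the libraries 1 to 3 but do not say what a number marks. After group means were taken off, same-numbered libraries correlated across genes at 0.282, 0.201 and 0.316 at 0-3 days and at 0.368 to 0.668 at the later ages, and others at -0.42 to -0.0658. Removing the mean forces some of these negative values.

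The comparison, the lists and the tests were chosen with earlier results of these data known. Named were, per direction, the called genes that changed most (at most 12, mean log2 CPM of at least 1, 3 of 3 pairs alike, a named symbol), up to 3 members per list, a few fixed genes (1 is not reported here) and up to 6 genes per direction of the age difference. Others are said to be chosen after their values were seen. A planned search for E-boxes in called Mondo and ChREBP genes had no gene to run on. Promoter sequences are RefSeq's, on GRCr8, and 8 of the 10 aryl hydrocarbon receptor list entries had 1 window. Alternatives were other size factors, other filters, DESeq2 1.42.0, no block, the 6 libraries alone, each pair left out, the 3-4 weeks libraries numbered 1 left out, and, chosen after seeing the data, limma 3.58.1 with voom. The fits were also run on simulated counts that had a pair effect built in, so that run cannot show whether the pairing suits these libraries.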

Additional observations from a re-analysis of the deposited data

Results flagged for a closer look

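The glucose effect at 0-3 days minus the mean effect of the 3 later ages differed from 0 by edgeR's test of that difference with the replicate block (adjusted p under 0.05, called for 20 genes in all and for 0 without the block). Among the genes named here, the log2 difference was 1.68 for Ptges, 0.939 for Ackr3, 0.877 for Tiparp, 0.795 for Kif26b, 0.749 for Eepd1 and 0.709 for Creb3l1. It was -1.23 for Diras2, -0.696 for Fras1, -0.603 for Syt13, -0.431 for Sipa1l2, -0.343 for Smtn and -0.297 for Cdr2l.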

How the results depend on the processing

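The pairing decided most calls. Without the replicate block, 0 genes were called for glucose at 0-3 days, against 148 with it, and 0 for the age difference, against 20. Without 1 pair of 0-3 days libraries in turn, these counts ran between 16 and 281 and between 2 and 54. The 6 libraries alone called 17. With limma voom, chosen after seeing the data, and culture number as a random block (consensus correlation 0.55), 82 and 2 were called. DESeq2 with the block called 37 for the age difference, and 12 were called without the 3-4 weeks libraries numbered 1. The counts stayed within 1.5 times under other size factors (147 and 24), no filter (133 and 25) and a minimum count of 30 (153 and 20). No setting turned the sign of a called gene. The cause of the lost calls was not tested. The smallest change called at 0-3 days, with 3 libraries per group, was 0.18 on the log2 scale.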
